A study of Homo sapiens with 12 samples.

Results

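Splicing of 10 genes for mitochondrial protein import, the prohibitin ring and cytochrome c oxidase assembly was followed in human 293A-TOA cells depleted of the splicing factor SFSWAP, with or without depletion of UPF1. The genes were TOMM40, TOMM34, TOMM20, TIMM44, TIMM50, TIMM23, TIMM17B, PHB2, PHB and COX11. Every skipped exon (SE) and retained intron (RI) event listed under their symbols was taken where inclusion and skipping reads together averaged at least 10 per library. This gave 161 of 97177 SE events and 22 of 8017 RI events in the table without UPF1 knockdown, and 156 of 93272 SE events and 17 of 7118 RI events in the table with UPF1 knockdown, for 10 of 12085 genes. Each gene held 4 to 31 of these SE events, and TOMM34, TOMM20 and COX11 had no listed intron. Of 187 and 179 SE events listed for these genes in the tables without and with UPF1 knockdown, those just under the limit had 9.333 and 9 reads per library and those just over it 10.33 and 10.83. The corresponding RI events had 9.167 and 9.333 reads just under it and 10.17 and 11.5 just over it. The gene list was drawn up with results of these data known, among them lower inclusion of a PHB2 exon after SFSWAP knockdown, so that PHB2 exon is described below without a test in that comparison.

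The 4 groups of 3 libraries each were siSFSWAP, siNT, siSFSWAP/siUPF1 and siNT/siUPF1. siSFSWAP cells received 40 nM of an SFSWAP siRNA and siNT cells a non-targeting siRNA, and the siUPF1 groups also received 30 nM of a UPF1 siRNA. The siRNA treatment lasted 5 days in all 4 groups. All 12 cultures, controls included, were treated with 1 μM Thiamet-G (TG), an inhibitor of O-GlcNAcase that raises protein O-GlcNAc, for 6 hr. The 293A-TOA line is a derivative of HEK293, an established embryonic kidney line, and the libraries were made from polyadenylated RNA of biological triplicates, so a single line and acute siRNA depletion limit the model. Libraries are numbered 1 to 3 below by their place in the deposited lists, and whether the same number in different groups stands for the same labelled replicate is not known.

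The SE tables held between 25938092 and 40637076 reads per library and the RI tables between 1812794 and 3030493. Reads at listed SFSWAP events were 47.1 ± 11.1 per 1000000 SE reads in siSFSWAP cells, against 121 ± 6.65 in siNT cells, and averaged 29.1 ± 9.99 in siSFSWAP/siUPF1 cells and 72.4 ± 7.57 in siNT/siUPF1 cells (SD, n = 3 each; sums over listed events, no test). On the same scale UPF1 reads were 92.9 ± 26.8 in siSFSWAP/siUPF1 cells and 68.8 ± 18.4 in siNT/siUPF1 cells, against 340 ± 58.2 in siNT cells, although the tables list different UPF1 events. Of the HEK293 markers, VIM was read in every group (means of 333 to 389), PAX2 stayed at or below 0.135 and LHX1, NEFM and NEFL had no listed event. Markers of blood cells, hepatocytes and fibroblasts were unlisted except COL1A1, at no more than 0.232.

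Most mitochondrial proteins are made in the cytosol and enter through the TOM complex of the outer membrane, where TOMM40 forms the pore, TOMM20 is a receptor for presequences, and the cytosolic TOMM34 holds precursors on the way. Presequence proteins then cross the inner membrane through the TIM23 complex, in which TIMM23 and TIMM17B line the channel, TIMM50 receives the precursor, and TIMM44 anchors the import motor. PHB and PHB2 assemble into the prohibitin ring of the inner membrane, and COX11 delivers copper to cytochrome c oxidase. UPF1 is the central helicase of nonsense-mediated decay (NMD), which destroys mRNAs whose stop codon lies well upstream of the last exon junction.

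The exons on which the results turn are shown 5′ to 3′ on the coding strand of GRCh38 (hg38), with the exon in capitals and flanking intron in lower case. Upstream intron is given for 25 bases, or 70 bases for PHB2 because its exon is only 6 nt long, so that each 3′ splice site and its pyrimidine tract can be read. TIMM44, TIMM50 and TOMM40 lie on chromosome 19, PHB and COX11 on 17, PHB2 on 12, TIMM23 on 10, TOMM34 on 20, TOMM20 on 1 and TIMM17B on X. Exons are numbered along the MANE Select transcript of GENCODE 44, and the numbered exons printed here lie in coding sequence.

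TOMM40 exon 6, chr19:44900705-44900862, plus strand: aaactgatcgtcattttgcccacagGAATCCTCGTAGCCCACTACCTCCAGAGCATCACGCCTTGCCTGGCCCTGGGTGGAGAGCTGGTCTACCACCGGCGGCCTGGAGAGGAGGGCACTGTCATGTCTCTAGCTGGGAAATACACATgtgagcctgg

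TOMM34 exon 5, chr20:44948720-44948902, minus strand: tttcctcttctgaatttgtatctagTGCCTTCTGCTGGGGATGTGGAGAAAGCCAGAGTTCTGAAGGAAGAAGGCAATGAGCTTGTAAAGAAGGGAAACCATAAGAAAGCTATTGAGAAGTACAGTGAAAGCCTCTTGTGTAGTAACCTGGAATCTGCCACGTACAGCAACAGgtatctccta

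TOMM20 exon of 68 nt in intron 3, chr1:235119329-235119431, minus strand: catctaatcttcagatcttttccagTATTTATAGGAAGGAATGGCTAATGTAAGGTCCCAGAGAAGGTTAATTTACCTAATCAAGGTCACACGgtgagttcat

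TIMM44 exon 7, chr19:7933475-7933595, minus strand: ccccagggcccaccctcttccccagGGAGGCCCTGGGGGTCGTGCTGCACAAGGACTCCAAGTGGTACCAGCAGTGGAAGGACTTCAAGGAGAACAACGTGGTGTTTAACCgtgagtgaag

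TIMM44 exon 9, chr19:7932617-7932776, minus strand: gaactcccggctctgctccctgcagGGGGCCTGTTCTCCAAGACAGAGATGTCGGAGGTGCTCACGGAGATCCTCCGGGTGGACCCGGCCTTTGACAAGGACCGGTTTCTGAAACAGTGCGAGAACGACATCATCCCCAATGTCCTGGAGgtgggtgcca

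TIMM50 exon 5, chr19:39485519-39485612, plus strand: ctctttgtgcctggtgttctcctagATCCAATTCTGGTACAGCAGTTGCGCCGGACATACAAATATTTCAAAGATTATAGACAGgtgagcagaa

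PHB2 exon 9, chr12:6965891-6965986, minus strand: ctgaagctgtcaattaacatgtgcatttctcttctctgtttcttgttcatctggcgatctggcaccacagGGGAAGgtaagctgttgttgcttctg

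All of these exons lie between AG and GT, as did 137 of the 143 distinct exons of the 10 genes and 25 of 25 introns. The last 25 intron bases before the exon held 14 pyrimidines at PHB2 exon 9 and TOMM40 exon 6, 16 at TIMM44 exon 9, 17 at the TOMM20 exon and 18 at TIMM44 exon 7, TIMM50 exon 5 and TOMM34 exon 5.

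The inclusion level, from 0 to 1, is the share of an event's inclusion reads in its inclusion and skipping reads. Both are first corrected for the length over which each can be counted. The level sets a form against its own skipping junction only and leaves out other forms. It is therefore not a share of all transcripts, and several forms of an exon can each have a high level. An event was called where its quasi-binomial test, adjusted by the Benjamini-Hochberg method over every event tested in the table, gave 0.05 or less. In siSFSWAP against siNT cells, 85 SE events of the 10 genes had enough reads of both forms to be tested. Inclusion was higher in 10 of them (11.8%), where 7.76% of all tested events were called higher. The other 2 calls (2.35%, where 4.21% of all events were called lower) were forms of PHB2 exon 9, whose lower inclusion was known when the list was drawn up, and nothing is read from them. With these 2 forms counted, the 12 called events shared 8 skipping junctions in 6 genes, because alternative forms of an exon are set against the same skipping reads, so they are not independent. Limma on log2 odds called 5 higher and 4 lower among the same 85 events. The median difference was 0.00596 over the 85 events and 0.00424 over all 33839 events tested, so the genes as a whole stood close to the background. Without siNT library 3, 7 member events were called, and 2829 of all 29406 events tested, against 4052 of 33839 with it.

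With UPF1 depleted, 81 SE events were tested between siSFSWAP/siUPF1 and siNT/siUPF1 cells. Of these 11 were higher (13.6%, with 4.05% of all events called higher) and 3 were lower (3.7%, with 3.47% of all called lower), at 7 skipping junctions in 6 genes. Limma on log2 odds called 0 of these 81 and 46 of all events, against 2558 of all events by the quasi-binomial test, and 5 member events (1457 of all 31486 events tested) were called without siSFSWAP/siUPF1 library 3. The median difference was 0.00696, against 0.00113 over all 34006 events. These 2 comparisons share no library. Of 60 SE events tested in both, 46 had the same sign (76.7%), where 15223 of 22458 events did over the whole tables (67.8%), and 3 of 14 events called in either were called in both, against 1167 of 3737 over the whole tables. One of the 3 was PHB2 exon 9.

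**Figure D1:**
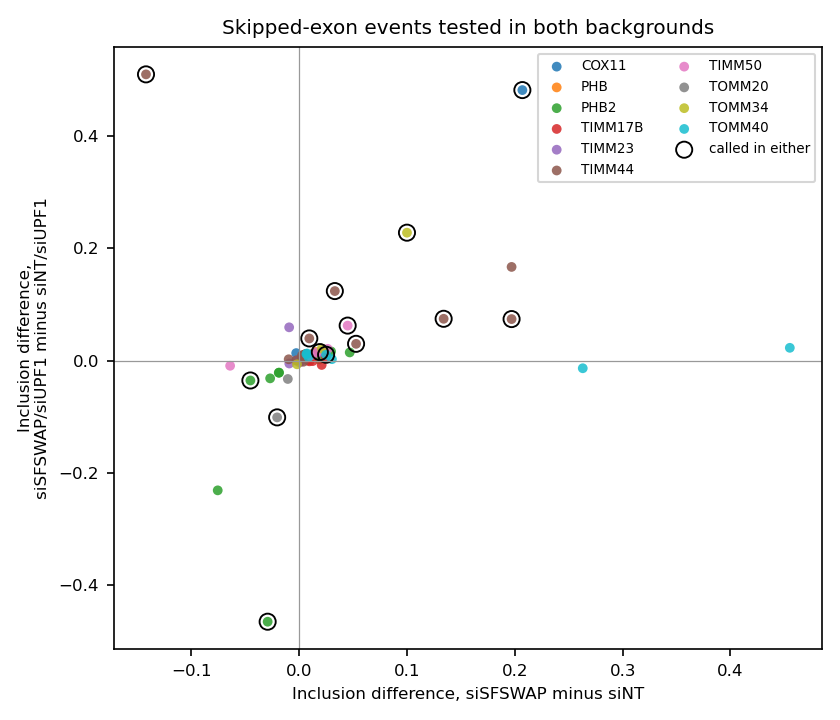
Difference in inclusion level of the member SE events tested in both backgrounds, siSFSWAP minus siNT on the x axis and siSFSWAP/siUPF1 minus siNT/siUPF1 on the y axis, on a scale where a full switch is 1. Points are coloured by gene and ringed where called in either comparison; most lie near 0, and TOMM34 exon 5 and TIMM50 exon 5 lie in the upper right quadrant while PHB2 exon 9 lies in the lower left.

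TOMM34 exon 5 carried more inclusion after SFSWAP knockdown in both backgrounds. Its levels were 0.884, 0.868 and 0.89 in siSFSWAP libraries and 0.805, 0.798 and 0.737 in siNT libraries. The groups did not overlap, and the difference of 0.1 corresponded to a log2 odds ratio of 1.13 ± 0.26 (SE, n = 3 each; adjusted p = 0.00101). This call was lost without siNT library 3 (adjusted p = 0.0612). In the UPF1-depleted background the levels were 0.873, 0.877 and 0.896 in siSFSWAP/siUPF1 cells, against 0.623, 0.568 and 0.769 in siNT/siUPF1 cells. The siSFSWAP/siUPF1 libraries were all above the siNT/siUPF1 libraries, and the difference of 0.228 (log2 odds ratio 2.01 ± 0.28, adjusted p = 1.04e-08) was kept without any one library. Skipping of this 148-nt exon shifts the frame and leaves a stop 104 nt before the last junction.

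TOMM40 exon 6, a 123-nt exon whose loss keeps the reading frame, had skipping reads in control libraries only. It met the limit of 10 skipping reads through those libraries alone. No skipping read was found among 3464 reads in siSFSWAP cells, which allows a skipping share of up to 0.0866% of reads, against 28, 9 and 18 skipping reads in the siNT libraries. The inclusion level was 1, 1 and 1 in siSFSWAP libraries and 0.965, 0.987 and 0.973 in siNT libraries (adjusted p = 0.00014), and the call was kept without any one library. A form starting 12 nt further downstream, tested against the same skipping reads, gave an adjusted p of 0.000174. Where UPF1 was depleted, 0 of 2370 reads skipped the exon in siSFSWAP/siUPF1 cells, which allows up to 0.127%, against 6, 10 and 0 reads in siNT/siUPF1 libraries. That difference did not pass the test (adjusted p = 0.105). Skipping leaves a frame of 320 codons, against 361 with the exon. The most-read events of the other annotated TOMM40 exons were not called between SFSWAP-depleted and control cells, and their group means were 0.959 or more in all 4 groups.

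TOMM20 carried a 68-nt exon in intron 3, which GENCODE lists only in a transcript without a defined coding region. Its levels were 0.059, 0.106 and 0.0408 in siSFSWAP/siUPF1 libraries, below 0.179, 0.221 and 0.109 in siNT/siUPF1 libraries. The groups did not overlap, and inclusion fell by 1.61 ± 0.35 on the log2 odds scale (adjusted p = 0.000404). The call was lost without siSFSWAP/siUPF1 library 3 (adjusted p = 0.0565). With UPF1 present the levels were 0.0511, 0.027 and 0.0524 in siSFSWAP libraries and 0.0418, 0.0771 and 0.0728 in siNT libraries, which overlapped (adjusted p = 0.309). Inclusion of this exon leaves 90 codons, against 145 without it, and a stop 188 nt before the last junction.

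TIMM44, the motor anchor, held the most tested and the most called events of the 10 genes. In siSFSWAP against siNT cells 5 of 21 tested were higher, where 7.76% of all events were called higher. In the UPF1-depleted background 4 of 19 were higher, where 4.05% of all were called higher. Those 4 were set against the same skipping junction, and some of the 5 also shared a junction, so they are not independent. Exon 9 (125 nt) had levels of 0.98, 0.987 and 0.968 in siSFSWAP libraries and 0.924, 0.947 and 0.905 in siNT libraries (log2 odds ratio 1.86 ± 0.63, adjusted p = 0.0186). The groups did not overlap, but the call was lost without siSFSWAP library 1 (0.0866), siSFSWAP library 2 (0.107) or siNT library 3 (0.114), where the values are adjusted p. A 343-nt form of the exon, with a 5′ splice site further downstream, averaged 0.924 ± 0.0283 and 0.765 ± 0.0438 in siSFSWAP and siNT cells (SD, n = 3 each; adjusted p = 0.0193) and lost its call without siSFSWAP library 1 (0.0716) or 2 (0.107) or without siNT library 1 (0.0521) or 3 (0.0861). With UPF1 depleted, exon 9 was at 0.972 ± 0.0121 in siSFSWAP/siUPF1 cells and 0.942 ± 0.0351 in siNT/siUPF1 cells, which overlapped (adjusted p = 0.275).

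Exons 11 (chr19:7928077-7928166) and 12 (chr19:7927657-7927767) of TIMM44 were left out together by one junction, from exon 10 to exon 13. That junction had 1, 1 and 0 reads in siSFSWAP libraries, against 24, 8 and 20 in siNT libraries. Set against it, exon 12 was at 0.993, 0.989 and 1 in siSFSWAP libraries and 0.821, 0.923 and 0.837 in siNT libraries (adjusted p = 0.000348), and exon 11 at 0.985, 0.983 and 1 against 0.704, 0.917 and 0.756 (adjusted p = 0.00117). Both calls were kept without any one library. The limit of 10 skipping reads was met through the siNT libraries alone. Both exons were set against the same junction reads, so their calls are not independent of each other. Where each exon was instead set against the junction that leaves out that exon alone, no call was made, with exon 11 at 0.982 ± 0.00425 in siSFSWAP cells and 0.985 ± 0.00449 in siNT cells and exon 12 at 0.996 ± 0.00492 and 0.982 ± 0.00904 (SD, n = 3 each). The joint junction was unread in all 3 siSFSWAP/siUPF1 libraries, against 9, 11 and 0 reads in siNT/siUPF1 libraries (adjusted p = 0.0972 for exon 12 and 0.077 for exon 11). Loss of both exons keeps the frame, at 385 codons against 452.

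TIMM44 exon 7 (86 nt) was called in the UPF1-depleted background. Skipping reads numbered 2, 1 and 0 in siSFSWAP/siUPF1 libraries and 21, 44 and 6 in siNT/siUPF1 libraries, and the levels were 0.995, 0.997 and 1 against 0.963, 0.923 and 0.988 (log2 odds ratio 3.92 ± 1.35, adjusted p = 0.00128). The groups did not overlap and the call was kept without any one library, as was that of a 58-nt form of the exon (0.99 ± 0.00939 against 0.866 ± 0.0946, adjusted p = 0.00111). A 427-nt form that runs on into intron 7 averaged 0.812 and 0.302 in siSFSWAP/siUPF1 and siNT/siUPF1 cells (adjusted p = 0.00744), and an 85-nt exon within that intron 0.824 and 0.186 (adjusted p = 0.00363). These 2 forms rested on 44 and 19.5 reads per library and on the same skipping junction, and both lost their calls without siSFSWAP/siUPF1 library 2 (adjusted p = 0.0685 and 0.0643) or library 3 (0.125 and 0.0511), the 427-nt form also without siNT/siUPF1 library 2 (0.0842). With UPF1 present exon 7 was at 0.991 ± 0.00204 in siSFSWAP cells and 0.982 ± 0.0086 in siNT cells (adjusted p = 0.315). The 427-nt form went the other way there, at 0.401 ± 0.103 in siSFSWAP cells and 0.543 ± 0.0808 in siNT cells, which overlapped (adjusted p = 0.671). Exon 7 and exon 9 both shift the frame when skipped, with stops 442 and 229 nt before the last junction.

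A 140-nt exon in TIMM44 intron 3 (chr19:7935719-7935858) was read only at trace level, with 4, 2 and 6 inclusion reads in siSFSWAP libraries and 0 of 2426 reads in siNT cells, which allows up to 0.124% of reads. It passed the test (adjusted p = 0.0446) with a difference of 0.00246 in level. The limit on inclusion reads was met through the siSFSWAP libraries alone. A call could therefore only be higher, and nothing is read from its direction. The call was lost without siSFSWAP library 2 (0.0574) or without siNT library 1 (0.111), 2 (0.0859) or 3 (0.114), and without siSFSWAP library 1 or 3 the exon had too few inclusion reads to be tested.

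TIMM50 exon 5 (59 nt), in the gene for the precursor receptor of the inner membrane, rose in both backgrounds. Its levels were 0.954, 0.98 and 0.969 in siSFSWAP libraries and 0.921, 0.952 and 0.894 in siNT libraries, without overlap (log2 odds ratio 1.29 ± 0.39, adjusted p = 0.0106). This call was lost without siSFSWAP library 2 (0.139), siSFSWAP library 3 (0.0575) or siNT library 3 (0.156). In the UPF1-depleted background the levels were 0.964, 0.964 and 0.994 in siSFSWAP/siUPF1 libraries, against 0.912, 0.859 and 0.964 in siNT/siUPF1 libraries, and the groups met at 0.964 (log2 odds ratio 1.98 ± 0.52, adjusted p = 0.00172). Forms of 188 and 454 nt with earlier 3′ splice sites, tested against the same skipping reads, gave adjusted p of 0.00174 and 0.00171. All 3 lost their calls without siSFSWAP/siUPF1 library 3 (0.126, 0.128 and 0.126 for the 59-, 188- and 454-nt forms) or siNT/siUPF1 library 2 (0.112, 0.107 and 0.106). Skipping of exon 5 shifts the frame, with a stop 475 nt before the last junction, and no other annotated TIMM50 exon was called.

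**Figure D2:**
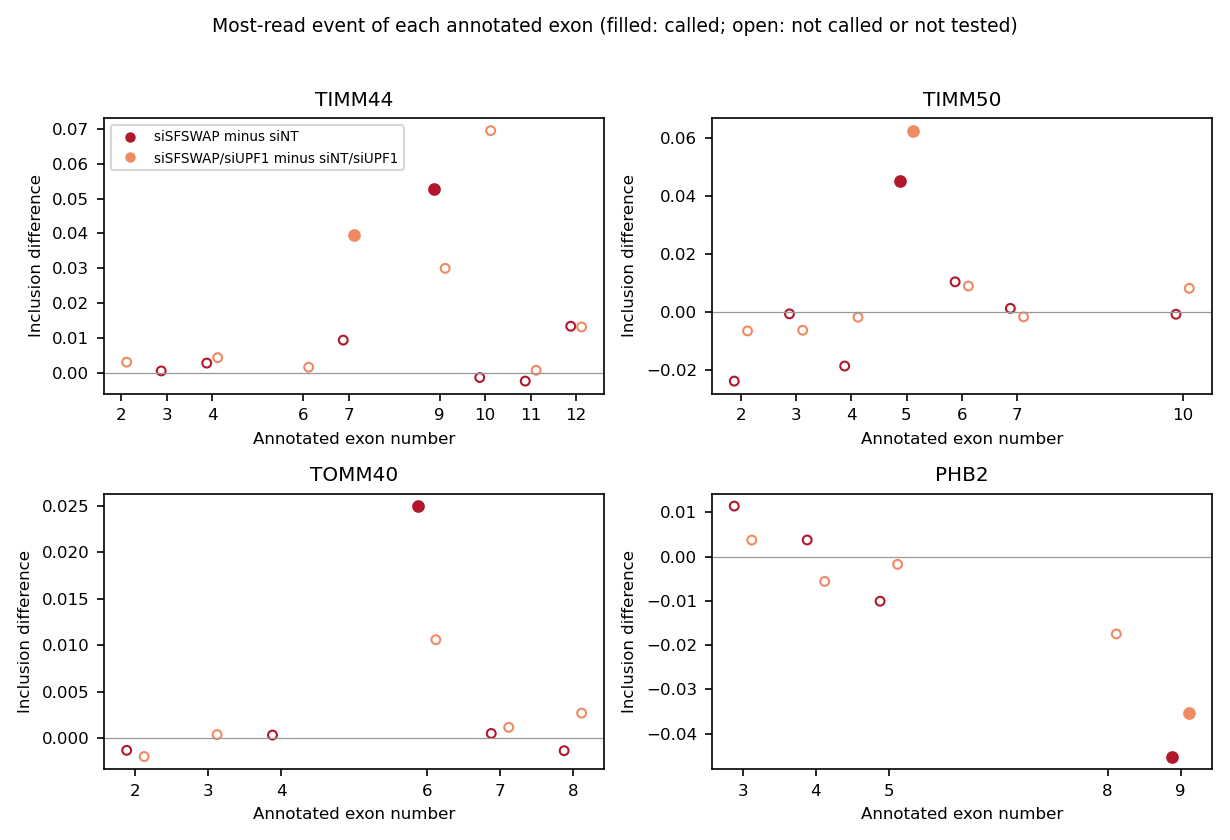
Difference in inclusion level at the annotated exons of TIMM44, TIMM50, TOMM40 and PHB2, numbered on the x axis, each by its event with the most reads, for siSFSWAP minus siNT (dark red) and siSFSWAP/siUPF1 minus siNT/siUPF1 (orange). Filled points were called and open points were not called or had too few reads of one form; in each gene the called points fall on 1 or 2 exons, as at TIMM50 exon 5 with 0.045 and 0.0625, and the open point farthest from 0 in TIMM44 is exon 10 at 0.0695, from 10.8 reads per library and not tested.

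TIMM23 shares nearly its whole sequence with its copy TIMM23B, so reads of the pair may be split between them and its values are uncertain. An unannotated 60-nt exon in intron 6 (chr10:45998335-45998394) was at 0.0307, 0.0167 and 0.0426 in siSFSWAP libraries and 0.00802, 0.00766 and 0.0167 in siNT libraries (log2 odds ratio 1.44 ± 0.43, adjusted p = 0.0137). The lowest siSFSWAP library and the highest siNT library both lay at 0.0167 after rounding, and the call was lost without siSFSWAP library 1 (0.053) or 3 (0.199) or siNT library 1 (0.0609) or 2 (0.0655). With UPF1 depleted its levels were 0.0248, 0.0343 and 0.0219 against 0.00438, 0.0245 and 0.00639 in siSFSWAP/siUPF1 and siNT/siUPF1 libraries (adjusted p = 0.13). TIMM17B, the other channel subunit, had no call among 5 and 10 events tested in the 2 comparisons, with the lowest adjusted p at 0.57 and 0.216. Its 150-nt exon in intron 2, present in another coding transcript, was at 0.12 ± 0.0269 in siSFSWAP cells and 0.0957 ± 0.0144 in siNT cells, and at 0.113 ± 0.0302 in siSFSWAP/siUPF1 cells and 0.106 ± 0.06 in siNT/siUPF1 cells (SD, n = 3 each). Its most-read event, a 41-nt exon in intron 3, had 1 inclusion read among 851 in siSFSWAP cells and 0 among 760 in siNT cells.

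PHB2 exon 9, the 6-nt exon printed above, had skipping reads in every SFSWAP-depleted library of both backgrounds. Its skipping junction had 43, 18 and 46 reads in siSFSWAP libraries, against 0, 2 and 1 in siNT libraries, and the levels were 0.947, 0.978 and 0.935 against 1, 0.998 and 0.999. A 50-nt form that begins 44 bases further upstream, at a site that lacks the AG of a usual 3′ splice site, had levels of 0.338, 0.48 and 0.342 in siSFSWAP libraries and 1, 0.952 and 0.962 in siNT libraries. This form was rare, with 94 inclusion reads in siSFSWAP cells and 128 in siNT cells, against 2388 and 2596 for exon 9. It was set against the same skipping junction, with 107 and 3 reads, so its difference lies mainly in that junction. These siSFSWAP and siNT values were known when the list was drawn up and are given without a test. Whether the UPF1-depleted libraries also informed that choice is not known, so their test is not offered as independent support. In them, skipping reads numbered 26, 27 and 17 in siSFSWAP/siUPF1 cells, against 0, 1 and 5 in siNT/siUPF1 cells. The corresponding levels were 0.949, 0.959 and 0.978 against 1, 0.999 and 0.994, without overlap, and inclusion fell by 3.82 ± 0.98 on the log2 odds scale (adjusted p = 6.75e-05, kept without any one library). Skipping keeps the frame, with 297 codons against 299.

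A PHB2 form of 338 nt (chr12:6966998-6967335), which overlaps exon 7 and runs on into intron 7, was also lower in the UPF1-depleted background. It had levels of 0.0246, 0.0451 and 0.0636 in siSFSWAP/siUPF1 libraries and 0.518, 0.516 and 0.493 in siNT/siUPF1 libraries, from a mean of 33.7 reads per library (log2 odds ratio -4.5 ± 0.93, adjusted p = 2.71e-05, kept without any one library). With UPF1 present it was at 0.128 ± 0.0941 in siSFSWAP cells and 0.157 ± 0.0814 in siNT cells, which overlapped (SD, n = 3 each; adjusted p = 0.549). The skipping junction set against it leaves out exons 6 and 7, and the included form stops 368 nt before the last junction. PHB, the partner of PHB2, had 1 event tested in each comparison and no call, the adjusted p of its 92-nt exon in intron 1 being 0.978 and 0.958. That exon was at 0.122 ± 0.0588 in siSFSWAP cells and 0.107 ± 0.0249 in siNT cells. PHB exon 6 was skipped by 0 of 5850 reads in siSFSWAP cells, which allows up to 0.0513%, and by 1 of 7511 reads in siNT cells, so there was too little skipping to test.

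COX11 was called only in the UPF1-depleted background, at an exon of 99 nt (chr17:54953661-54953759, minus strand) that lies outside the main transcript and is annotated without a coding region. Its levels were 0.684, 0.455 and 0.692 in siSFSWAP/siUPF1 libraries, against 0.191, 0.0909 and 0.103 in siNT/siUPF1 libraries, which did not overlap (log2 odds ratio 3.29 ± 0.87, adjusted p = 0.00316). The exon was read 41 times in the siSFSWAP/siUPF1 libraries and 32 times in the siNT/siUPF1 libraries, while skipping reads numbered 13 and 103, so the difference lies in the skipping junction. The call was lost without siSFSWAP/siUPF1 library 3 (0.0673). Forms of 113 and 182 nt that share its 5′ splice site gave adjusted p of 0.0179 and 0.0144 and lost their calls without library 1 (0.144 and 0.118) or 3 (0.112 and 0.0907) of the same group. With UPF1 present the 99-nt exon was at 0.385, 0.231 and 0.692 in siSFSWAP libraries and 0.2, 0.455 and 0.0323 in siNT libraries, from 11.8 reads per library (adjusted p = 0.519).

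**Figure D3:**
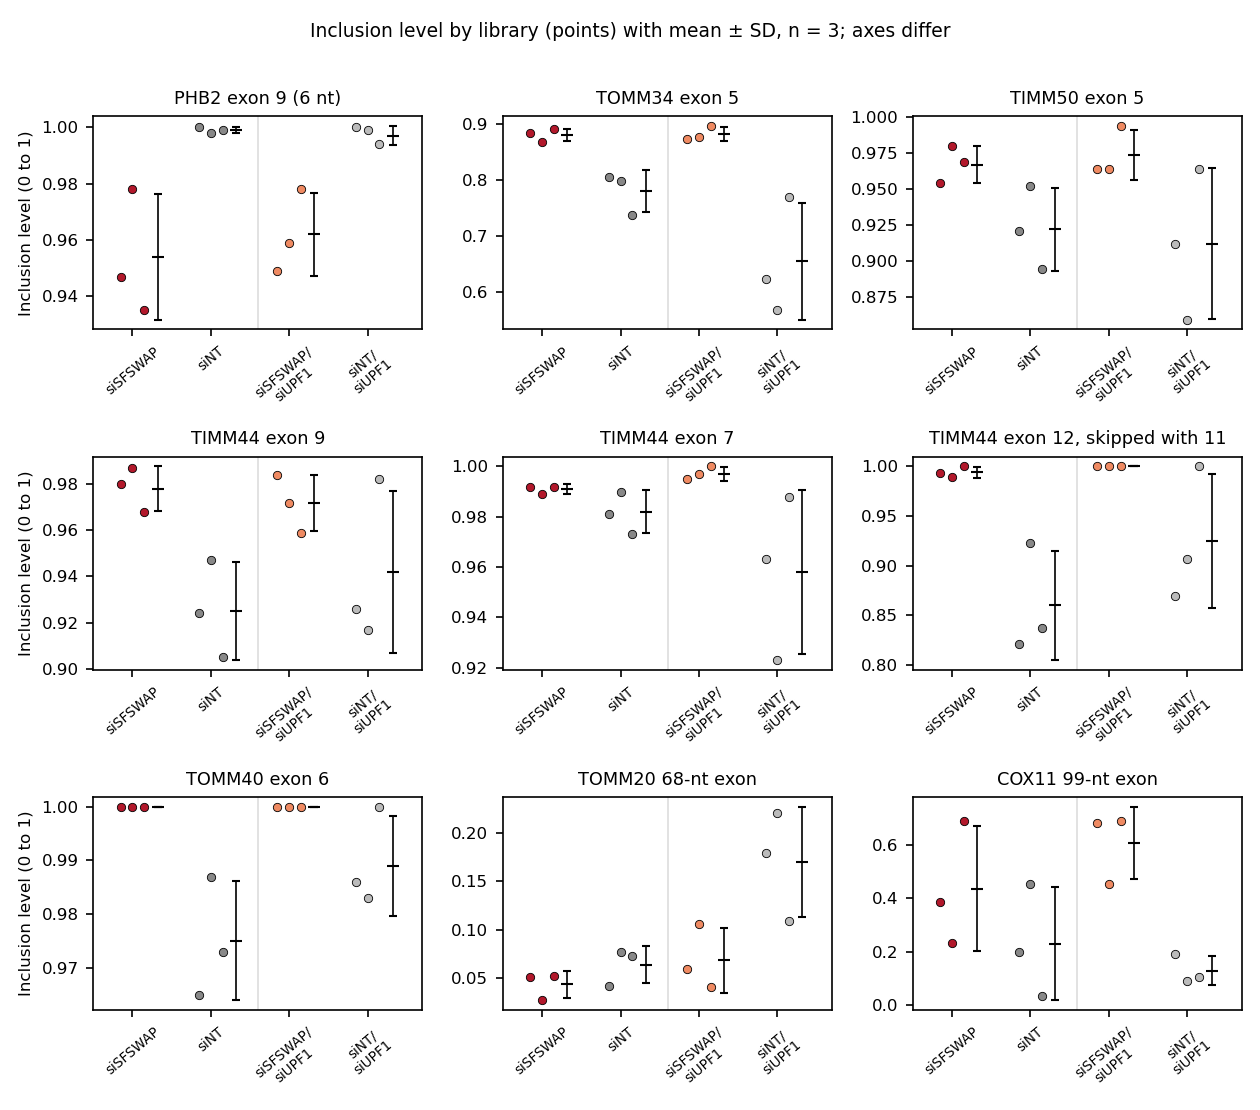
Inclusion level of 9 exons in each library (points), with the mean and SD of the 3 libraries beside them, for siSFSWAP, siNT, siSFSWAP/siUPF1 and siNT/siUPF1 cells from left to right; the y axes differ between panels. TOMM34 exon 5 lies at 0.868 to 0.896 in every SFSWAP-depleted library and below these in all controls, whereas PHB2 exon 9 lies lower in the SFSWAP-depleted libraries of both backgrounds.

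UPF1 knockdown alone was set against the non-targeting control by comparing siNT/siUPF1 with siNT cells at events listed with the same coordinates in both tables. The siNT libraries and the siNT/siUPF1 libraries each serve also as controls in one of the comparisons above, so these differences are not independent of those. Among 72 SE events tested, 2 were higher (0.778% of all events were called higher) and 1 was lower (0.396% of all were called lower). Limma called 0 of them, and 0 were called without siNT/siUPF1 library 2 (268 of all 23876 events) or siNT library 1 (129 of all 26481), against 332 of 28261 with all libraries. The TOMM20 68-nt exon rose to 0.179, 0.221 and 0.109 in siNT/siUPF1 libraries, against 0.0418, 0.0771 and 0.0728 in siNT libraries (log2 odds ratio 1.57 ± 0.35, adjusted p = 0.00609), a call lost without siNT/siUPF1 library 2 (0.0722) or siNT library 1 (0.0598). A TOMM40 form of exon 8 lengthened to 245 nt rose to 0.277, 0.775 and 0.789 in siNT/siUPF1 libraries, against 0.181, 0.152 and 0.201 in siNT libraries, from 27.2 reads per library (adjusted p = 0.0399). That call was lost without siNT/siUPF1 library 2 (0.276) or 3 (0.089), or siNT library 1 (0.241) or 2 (0.0559). The skipping junction set against this form leaves out exons 6, 7 and 8, and its reading frame was modelled without exons 6 and 7. In siSFSWAP cells the form averaged 0.633, against 0.178 in siNT cells, from 20 reads per library. Those groups did not overlap, but the form was not called (adjusted p = 0.148). TIMM23 exon 2 (59 nt) fell to 0.828, 0.815 and 0.924 in siNT/siUPF1 libraries, against 0.93, 0.917 and 0.947 in siNT libraries, which overlapped (adjusted p = 0.0308). It was lost without siNT/siUPF1 library 1 (0.0986) or 2 (0.431), or siNT library 1 (0.13) or 3 (0.0792).

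The form that carries an early stop, more than 50 nt before the last junction, was the included one for the TOMM20 exon and the TOMM40 exon 8 form and the skipped one for TIMM23 exon 2. In each, the form with the early stop took a larger share in siNT/siUPF1 than in siNT cells. By the sign of the log2 odds ratio, over all 33 tested events whose included form stops early, inclusion was higher in siNT/siUPF1 than in siNT cells in 27, and over 11 whose skipped form stops early it was lower in 6. Where neither form stops early it was higher in 13 of 18 events, and over all 28261 events tested it was higher in 58.1%. TOMM34 exon 5, whose skipped form stops early, was at 0.654 ± 0.104 in siNT/siUPF1 cells and 0.78 ± 0.0373 in siNT cells (SD, n = 3 each), and missed the threshold (adjusted p = 0.0805). Likewise the 338-nt PHB2 form was at 0.509 ± 0.0143 and 0.157 ± 0.0814 (adjusted p = 0.114), and TIMM44 exon 7 at 0.958 ± 0.0326 and 0.982 ± 0.0086 (adjusted p = 0.355). TIMM44 exon 9, whose skipped form also stops early, went the other way, at 0.942 ± 0.0351 and 0.925 ± 0.0212 (adjusted p = 0.882). Some of the events counted by sign are forms of the same exon that share reads, so the signs are not independent.

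**Figure D4:**
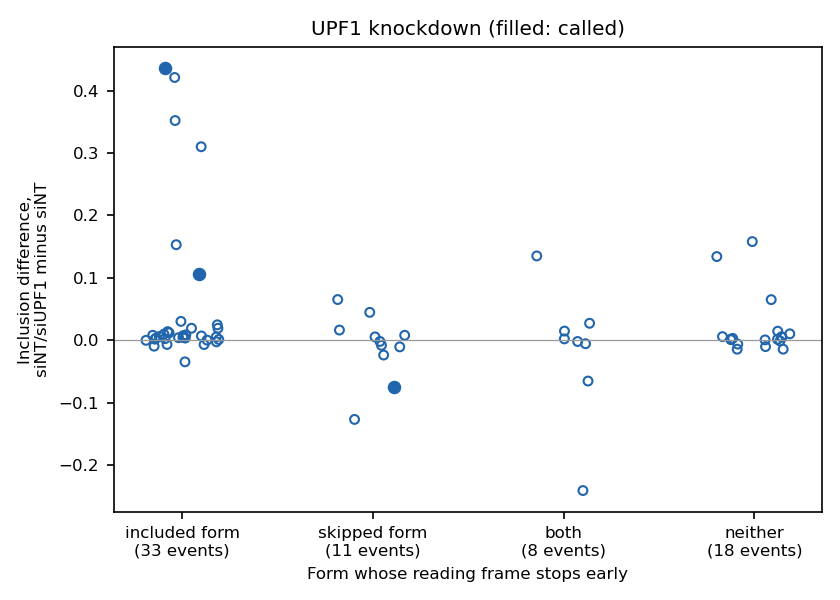
Difference in inclusion level, siNT/siUPF1 minus siNT, for the member SE events tested, grouped by which form has a reading frame that stops early; filled points were called and sideways spread within a group is only for legibility. In the group whose included form stops early, 27 of 33 events have more inclusion by log2 odds after UPF1 knockdown.

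Among the siNT/siUPF1 libraries, library 3 lay nearest to the siNT mean at TOMM34 exon 5 (0.769), TIMM44 exon 7 (0.988), TIMM23 exon 2 (0.924) and the TOMM20 exon (0.109). It lay farthest from that mean at the TOMM40 245-nt form (0.789), TOMM40 exon 6 (1), PHB2 exon 9 (0.994) and TIMM44 exon 9 (0.982). The same held for TIMM44 exons 11 and 12 set against their joint junction (1 and 1), and library 1 (0.912) was nearest at TIMM50 exon 5. Library 3 was thus near the siNT mean at some exons and far from it at others. The UPF1 reads of library 3 were the highest of the 3, at 86.3 per 1000000 against 49.7 and 70.5 in libraries 1 and 2. Without this library, 21 of 81 member events were called between siSFSWAP/siUPF1 and siNT/siUPF1 cells in place of 14, and 3067 of all 30887 events in place of 2558 of 34006.

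Whether SFSWAP knockdown acted differently in the 2 UPF1 backgrounds was tested by an interaction term over all 12 libraries. None of 83 member SE events passed (0.00771% of all events did), with 4 at an unadjusted p of 0.05 or less by this test, and 0 called and 7 unadjusted by limma. The smallest unadjusted values of this Wald test were those of the 338-nt PHB2 form, the 427-nt TIMM44 form, TIMM23 exon 2 and TOMM34 exon 5, each with an adjusted p of 0.994. At TOMM34 exon 5 the difference was 0.228 with UPF1 depleted and 0.1 with UPF1 present, so the 2 effects are not shown to differ.

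Intron retention was low in most of these genes. Of 14 introns tested in siSFSWAP against siNT cells, 0 were higher (1.33% of all introns were called higher) and 1 was lower (7.14%, with 9.1% of all introns called lower). The lower intron was TOMM40 intron 6, of 175 nt, which follows exon 6 and was at 0.00915, 0.00385 and 0.00377 in siSFSWAP libraries and 0.0235, 0.00999 and 0.0154 in siNT libraries (adjusted p = 0.0429). The groups did not overlap, and the call was lost without siSFSWAP library 2 (0.203) or 3 (0.109) or siNT library 1 (0.264) or 3 (0.0683). Mean retention was lower in siSFSWAP cells in 6 of the 7 TOMM40 introns tested. A 92-nt intron of TOMM40 was at 0.642, 0.681 and 0.509 in siSFSWAP libraries and 0.864, 0.806 and 0.892 in siNT libraries without overlap, but missed the threshold (adjusted p = 0.0915), and a 109-nt intron was at 0.0181 ± 0.00667 and 0.0973 ± 0.0279 (adjusted p = 0.13). TOMM40 introns beginning or ending at different sites overlap one another, and they share reads.

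PHB intron 4 was at 0.00598 ± 0.000706 in siSFSWAP cells and 0.0057 ± 0.00156 in siNT cells, and TIMM17B intron 4 at 0.0513 ± 0.0125 and 0.0604 ± 0.00948 (SD, n = 3 each), neither of which was called. In the UPF1-depleted background 0 of 14 introns were called (0.979% of all were called higher and 2.59% lower), with 1 at an unadjusted p of 0.05 or less and 0 called by limma. UPF1 knockdown alone gave 0 calls in 10 introns, with 0 unadjusted and 0 by limma (0.0659% of all introns were called), and the interaction 0 in 11, with 0 unadjusted and 0 by limma (0.0291% of all).

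**Figure D5:**
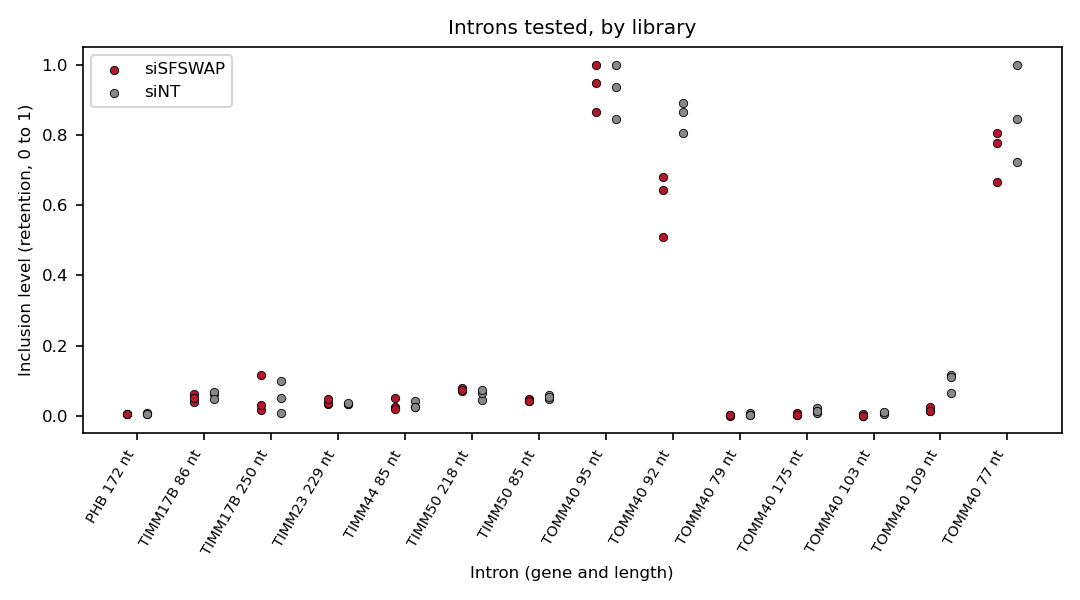
Inclusion level (retention, 0 to 1) of the 14 introns tested in siSFSWAP (red) and siNT (grey) libraries, 1 point per library, named by gene and intron length. Most introns lie near 0; the 92-nt and 109-nt TOMM40 introns lie lower in all siSFSWAP libraries without passing the test, and the 175-nt TOMM40 intron, which passed, lies at 0.0235 or less in both groups.

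Annotated internal exons of the 10 genes were nearly always included in control cells. Of 33 such exons with enough reads in siNT cells, 29 had a mean level of 0.95 or more, and the lowest was TOMM34 exon 5 at 0.78. In siNT/siUPF1 cells 31 of 37 did, and the lowest was again TOMM34 exon 5 at 0.654. The 23 exons or exon forms of 8 genes called in either SFSWAP comparison had a median length of 111 nt, with 1992 nt of intron upstream and 497 nt downstream. The 63 tested but not called had 120, 1036 and 670 nt. These lengths are a description, since several of the forms share splice sites.

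The wider pathways were read from 6 lists of 72 genes that do not include the 10 genes. Between siSFSWAP and siNT cells, 3 events rose and 7 fell of 51 tested in the list of TIM complexes and the import motor. Among these was a 228-nt exon of HSPA9, the motor chaperone, at 0.992 in siSFSWAP cells and 0.933 in siNT cells (adjusted p = 4.05e-07), and TIMM21 (0.904 and 0.981, adjusted p = 0.0345) and TIMM8B (0.216 and 0.288, adjusted p = 0.0422) held lower calls. Of 67 events in inner membrane proteases and scaffolds linked to prohibitins, 5 rose and 1 fell. Among them a 135-nt exon of STOML2, a scaffold that binds prohibitins, was at 0.992, 0.995 and 0.998 in siSFSWAP libraries and 0.888, 0.946 and 0.898 in siNT libraries (adjusted p = 2.24e-08). In the cytochrome c oxidase assembly list 1 event rose and 6 fell of 45, and one of the falls was a 45-nt exon of LRPPRC, a stabiliser of mitochondrial mRNAs, at 0.906 in siSFSWAP cells and 0.993 in siNT cells (adjusted p = 0.00126). In the SAM and intermembrane space list 3 of 9 events rose, all in MTX1, and in the presequence processing and matrix chaperone list 2 of 34 fell, both in HSPD1. Limma called 3 events in the TIM list, 3 in the inner membrane list, 4 in the oxidase assembly list and 0 in the SAM and presequence lists. None of 5 events in other TOM subunits was called, with 1 at an unadjusted p of 0.05 or less and 0 by limma.

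With UPF1 depleted, 6 of 54 events in the TIM list, in TIMM21 and HSPA9, were lower in siSFSWAP/siUPF1 than in siNT/siUPF1 cells. So were 13 of 54 in the oxidase assembly list, in LRPPRC, PET100 and SCO1, and none was higher in either list. Over all events 3.47% were called lower. The HSPA9 event with the lowest adjusted p was a 102-nt exon (0.909 and 0.997, adjusted p = 0.0178), not the 228-nt exon described above. The same LRPPRC exon was at 0.945 and 1 (adjusted p = 0.00671). Of 72 events in the inner membrane list 2 were higher, both in YME1L1 (0.162 and 0.0707, adjusted p = 0.00477 for its 171-nt exon), and 1 of 34 in the presequence list, in IMMP1L, was lower. Limma called 0 events in each of these lists. The TOM list had 0 calls in 6 events (0 unadjusted, 0 by limma) and the SAM list 0 in 13 (5 unadjusted, 0 by limma). For siNT/siUPF1 against siNT cells the inner membrane list had 1 call in 60 events, the STOML2 exon, at 0.975 and 0.91 (adjusted p = 0.0222). The other lists had 0 calls, with 1 of 5 TOM, 7 of 36 TIM, 2 of 10 SAM, 4 of 32 presequence and 4 of 36 oxidase assembly events at an unadjusted p of 0.05 or less, and limma called 0 in all 6 lists, the STOML2 exon included. List events were not recomputed without single libraries, and their shares are to be read beside the percentages of all events given above.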

How the data were processed

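Human 293A-TOA cells in 4 groups of 3 libraries were analysed from event tables that the authors made with rMATS. Per the study's methods, single-end polyadenylated RNA reads were trimmed with cutadapt 1.9.1 and aligned with STAR 2.7 in its two-pass mode to GRCh38.p8, the versions being those of the submitters' processing notes. Each deposited event row lists, per library, the inclusion and skipping read counts (junction and exon-body reads, comma-joined), the 2 effective lengths and inclusion levels as a fraction. Because exon-body reads count as inclusion, retained or overlapping transcripts raise it. The tables name no replicate. The first list was taken as the non-targeting siRNA and the second as SFSWAP siRNA, following the study's definition of its difference column. Columns of the authors' own p-value, false discovery rate and level difference were not used.

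Levels were recomputed from counts and lengths. An event was tested where it averaged at least 10 reads per library and had at least 10 inclusion and 10 skipping reads in all. A quasi-binomial model was fitted per event, its Pearson dispersion moderated across all events (limma 3.58.1 squeezeVar, floor 1) and the group term tested 2-sided by an F test, with a Wald test for the interaction. P-values were adjusted by the Benjamini-Hochberg method over all events tested. Values have n = 3 libraries a group. The p-values rest on a spread between libraries that was moderated towards the spread pooled over all events. That pooled spread carried 66.7 and 71 degrees of freedom in the SE comparisons of SFSWAP knockdown without and with UPF1 knockdown, so it weighed more than an event's own libraries. R 4.3.3, the data.table package (1.17.8), Python 3.11.15, pandas 2.3.3 and matplotlib 3.10.9 were used, and exons were placed with GENCODE 44.

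Libraries held 25938092 to 40637076 SE reads, and limits for 0 reads use 3 reads and cover counting error only. Named events were chiefly all called members and their counterparts in the other comparisons. For PHB and TIMM17B, which had no call, the most-read exon, the most-read intron and the most-read exon tested were named. The members and the 6 pathway lists (TOM complex, TIM complexes and import motor, SAM and intermembrane space import, presequence processing and matrix chaperones, inner membrane proteases and scaffolds, and cytochrome c oxidase assembly) were chosen with earlier results of these data known. Alternatives were a mean of 30 reads, no filter, limma on log2 odds with 0.5 added to each count, no moderation, a dispersion trend on depth, 1 event per exon, a minimum difference of 0.2 and leaving out each library.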

Additional observations from a re-analysis of the deposited data

How the results depend on the processing

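The number of called member events depended on how the spread between libraries was estimated. With a dispersion of each event's own, 0 member events and 0 of all events were called in every comparison. Limma on log2 odds called 9 SE events in siSFSWAP against siNT cells (12 by the quasi-binomial test, and 1239 against 4052 over all events), 0 in the UPF1-depleted background (14; 46 against 2558), 0 for UPF1 knockdown (3; 0 against 332) and 0 introns (1; 0 against 610). Without a filter on low reads the calls were 1, 0, 0 and 0 in the same order, and 115, 29, 19 and 4 over all events. A minimum difference of 0.2 left 1, 7, 1 and 0, and 1343, 856, 83 and 182 over all events. A dispersion trend on depth left 12, 14, 3 and 0, a mean of 30 reads 12, 11, 2 and 1, and 1 event per exon 10, 13, 3 and 1. Leaving out single libraries gave 7 to 12, 5 to 21, 0 to 4 and 0 to 1. The interaction and the remaining intron comparisons stayed at 0 under each of these alternatives. Of 30 named calls 11 were kept without any one library, limma ended 23, no filter 29 and the trend 2, and none changed its sign. Calls at PHB2 exon 9 are counted in these numbers, and those in both backgrounds are among the 11. They lend no support, because lower inclusion of that exon was known when the genes were chosen. The cause of the differences between settings was not tested. No paired analysis was possible because the columns carry no replicate numbers. Low read totals limit the 85-nt and 427-nt TIMM44, 338-nt PHB2, 245-nt TOMM40 and COX11 events most.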
